A study of Mus musculus with 9 samples.

Results

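The genes described here belong to the families of ligands and receptors of 4 developmental signalling pathways, FGF, Wnt, BMP and Notch, together with the Smads. They were chosen by symbol from the protein-coding genes of GENCODE vM21 (GRCm38/mm10): Fgf, Fgfr, Wnt, Fzd, Bmp, Notch or Smad followed by a number, symbols beginning with Bmpr, and Dll1, Dll3, Dll4, Jag1, Jag2, Lrp5 and Lrp6. This gave 88 of 21938 protein-coding genes. Each was joined to the differentially methylated regions deposited by the authors, using the gene body and the 1000 bp upstream of it. A differentially methylated region is here called a listed region, since the deposited table lists only regions that passed the authors' false discovery rate limit of 0.05.

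The hypothalamus of male C57/Bl6 mice was collected on postnatal day 6 and assayed by methylated DNA immunoprecipitation sequencing (meDIP-seq), in which an antibody to methylated cytosine enriches methylated DNA fragments before sequencing. On postnatal day 3 each litter was reduced to 4 males, of which 2 served as controls and 2 underwent modified maternal separation (MMS), which was a daily separation of 1.5 h from day 4 to day 6 during which the pups lay on a heating pad and were turned onto their backs. From 10 litters, 10 animals per group were allocated at random to 3 pools, so that the comparison rests on 3 control and 3 MMS libraries, with 1 pooled input per group and 1 IgG control. The labels name no transgene or allele for either group, and both came from the same litters.

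FGF ligands act through receptor tyrosine kinases. Wnt ligands act through Frizzled receptors with Lrp5 or Lrp6 as co-receptors. BMPs act through serine/threonine kinase receptors that phosphorylate Smad proteins, and Delta and Jagged ligands act through Notch receptors on adjacent cells. In the developing hypothalamus these pathways pattern the tissue and regulate the change from dividing progenitors to neurons and glia. In mammals most DNA methylation sits on cytosines of CpG dinucleotides, and the number of fragments that meDIP recovers depends on both the methylation and the number of CpG sites in the fragment.

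The table holds 1 mean per group for each region, as log2 of the normalised read number, and no value per pool. Every difference below is therefore the MMS mean minus the control mean on the log2 scale, without an SD, and no test between the groups could be added. Many regions stood in one group at a fixed lowest value, which was -0.17 in control and -0.24 in MMS, or less than 1 normalised read, and a difference against that value depends on where the processing set it. The samples are pools of whole tissue, so a change in methylation and a change in the mix of cell types cannot be told apart. The tissue label could not be checked against expression markers, because the table holds no expression values.

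The reference sequences of 8 listed regions, or of the 300 bases with the most CpG sites in wider ones, show the range of sequence the signalling genes presented to the antibody. Each is written 5′ to 3′ on the strand of its gene, from the GRCm38/mm10 reference, with CpG sites in capitals. The first is the only listed region inside the RefSeq body of Fgfr2 (chr7:130164182-130164389, minus strand, 3 CpG), and the second is the Fgf12 region, which had the largest difference in favour of control (chr16:28722468-28722660, minus strand, 3 CpG).
Fgfr2: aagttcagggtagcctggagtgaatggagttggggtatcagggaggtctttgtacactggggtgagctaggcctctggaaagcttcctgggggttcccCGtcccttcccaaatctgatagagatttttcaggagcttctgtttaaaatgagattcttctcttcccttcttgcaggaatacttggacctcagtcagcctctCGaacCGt
Fgf12: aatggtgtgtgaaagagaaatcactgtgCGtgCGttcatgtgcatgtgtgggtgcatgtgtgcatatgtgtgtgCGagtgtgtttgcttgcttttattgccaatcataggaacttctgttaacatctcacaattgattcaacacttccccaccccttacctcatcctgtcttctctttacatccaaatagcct
The region of Bmp10 had the most CpG sites per 100 bp among the signalling genes (chr6:87429202-87429501 of the region, plus strand, 15 CpG). The regions of Lrp6 (chr6:134471001-134471274, minus strand, 10 CpG) and Fzd3 (chr14:65258800-65258948, minus strand, 0 CpG) were both higher in control, although the first is rich in CpG and the second has none.
Bmp10: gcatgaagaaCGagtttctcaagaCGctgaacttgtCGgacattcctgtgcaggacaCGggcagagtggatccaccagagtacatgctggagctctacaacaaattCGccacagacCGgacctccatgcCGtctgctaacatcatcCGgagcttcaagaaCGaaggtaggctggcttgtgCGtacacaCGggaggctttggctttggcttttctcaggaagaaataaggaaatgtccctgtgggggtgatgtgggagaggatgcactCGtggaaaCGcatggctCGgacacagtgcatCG
Lrp6: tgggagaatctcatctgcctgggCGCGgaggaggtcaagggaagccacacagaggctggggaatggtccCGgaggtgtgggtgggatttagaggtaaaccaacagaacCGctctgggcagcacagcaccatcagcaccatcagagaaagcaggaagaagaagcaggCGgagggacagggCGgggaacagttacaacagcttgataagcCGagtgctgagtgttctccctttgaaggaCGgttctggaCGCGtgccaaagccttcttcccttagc
Fzd3: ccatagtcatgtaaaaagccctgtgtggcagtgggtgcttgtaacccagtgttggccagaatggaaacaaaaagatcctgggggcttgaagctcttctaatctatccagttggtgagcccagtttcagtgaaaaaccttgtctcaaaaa
Another 3 regions, which stood at the lowest value in control, are shown for comparison, from Smad6 (chr9:64012368-64012667, minus strand, 8 CpG), Wnt3 (chr11:103811941-103812240, plus strand, 5 CpG) and Jag1 (chr2:137093780-137094079, minus strand, 2 CpG).
Smad6: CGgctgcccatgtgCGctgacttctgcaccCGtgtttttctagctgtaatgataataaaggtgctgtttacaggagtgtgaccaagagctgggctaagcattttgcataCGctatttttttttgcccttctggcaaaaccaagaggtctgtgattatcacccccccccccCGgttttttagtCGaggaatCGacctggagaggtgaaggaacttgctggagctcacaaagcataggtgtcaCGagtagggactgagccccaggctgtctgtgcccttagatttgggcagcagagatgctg
Wnt3: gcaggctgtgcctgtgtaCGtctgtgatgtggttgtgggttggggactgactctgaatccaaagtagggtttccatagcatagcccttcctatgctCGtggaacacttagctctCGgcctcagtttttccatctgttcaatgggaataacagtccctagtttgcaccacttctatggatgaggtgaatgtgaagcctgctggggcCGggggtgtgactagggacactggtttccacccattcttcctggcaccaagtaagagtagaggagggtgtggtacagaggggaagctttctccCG
Jag1: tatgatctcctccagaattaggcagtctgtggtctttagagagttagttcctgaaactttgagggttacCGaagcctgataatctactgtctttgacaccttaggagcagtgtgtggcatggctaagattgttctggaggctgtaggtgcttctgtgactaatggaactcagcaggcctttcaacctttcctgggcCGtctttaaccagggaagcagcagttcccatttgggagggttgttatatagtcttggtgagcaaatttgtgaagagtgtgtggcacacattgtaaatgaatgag

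Of the 88 signalling genes, 22 carried at least 1 listed region (25%), against 19.3% of all protein-coding genes (4233 of 21938). With both group means above their lowest values, 12 signalling genes remained listed (13.6%), against 14.6% of all protein-coding genes, so that the order of these shares turned. They held 45 of the 12949 listed regions. A single region was found on 17 genes and more on 5, namely Fgfr2 with 19, Notch3 with 3, and Fgf7, Fgfr1 and Lrp6 with 2 each. Regions higher in MMS alone were found on 14 genes, regions higher in control alone on 6, and Fgf7 and Fgfr2 had both. By pathway, 6 of 26 FGF genes, 6 of 31 Wnt genes, 8 of 22 BMP genes and 2 of 9 Notch genes were listed.

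Of the 45 regions, 31 were higher in MMS and 14 were higher in control. The share higher in MMS was 68.9% (95% Wilson interval 54.3 to 80.5, which covers the counting of regions only), beside 62.6% of all listed regions and 62.1% of those on protein-coding genes. Without Fgfr2 the share was 69.2% (18 of 26 regions, interval 50.01 to 83.5). Both intervals include the share of the whole table. With both group means above their lowest values the share was 55.6% of 27 regions on signalling genes and 45.3% of all 8452 such regions, so that the majority in favour of MMS over the whole table rested on regions with control at its lowest value. The median difference was 3.46 among the regions higher in MMS and -2.09 among those higher in control, and over all listed regions the same medians were 3.43 and -1.73.

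The control mean stood at its lowest value in 16 of the 31 regions higher in MMS (51.6%), as it did in 52.7% of all regions of that direction. The MMS mean stood at its lowest value in 2 of the 14 regions higher in control, on Fgf12 and Fgf7, and in 4.60% of all regions of that direction. The plot of group means by role shows both patterns, with many control points on the dotted line and 2 MMS points on theirs.

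**Figure D1:**
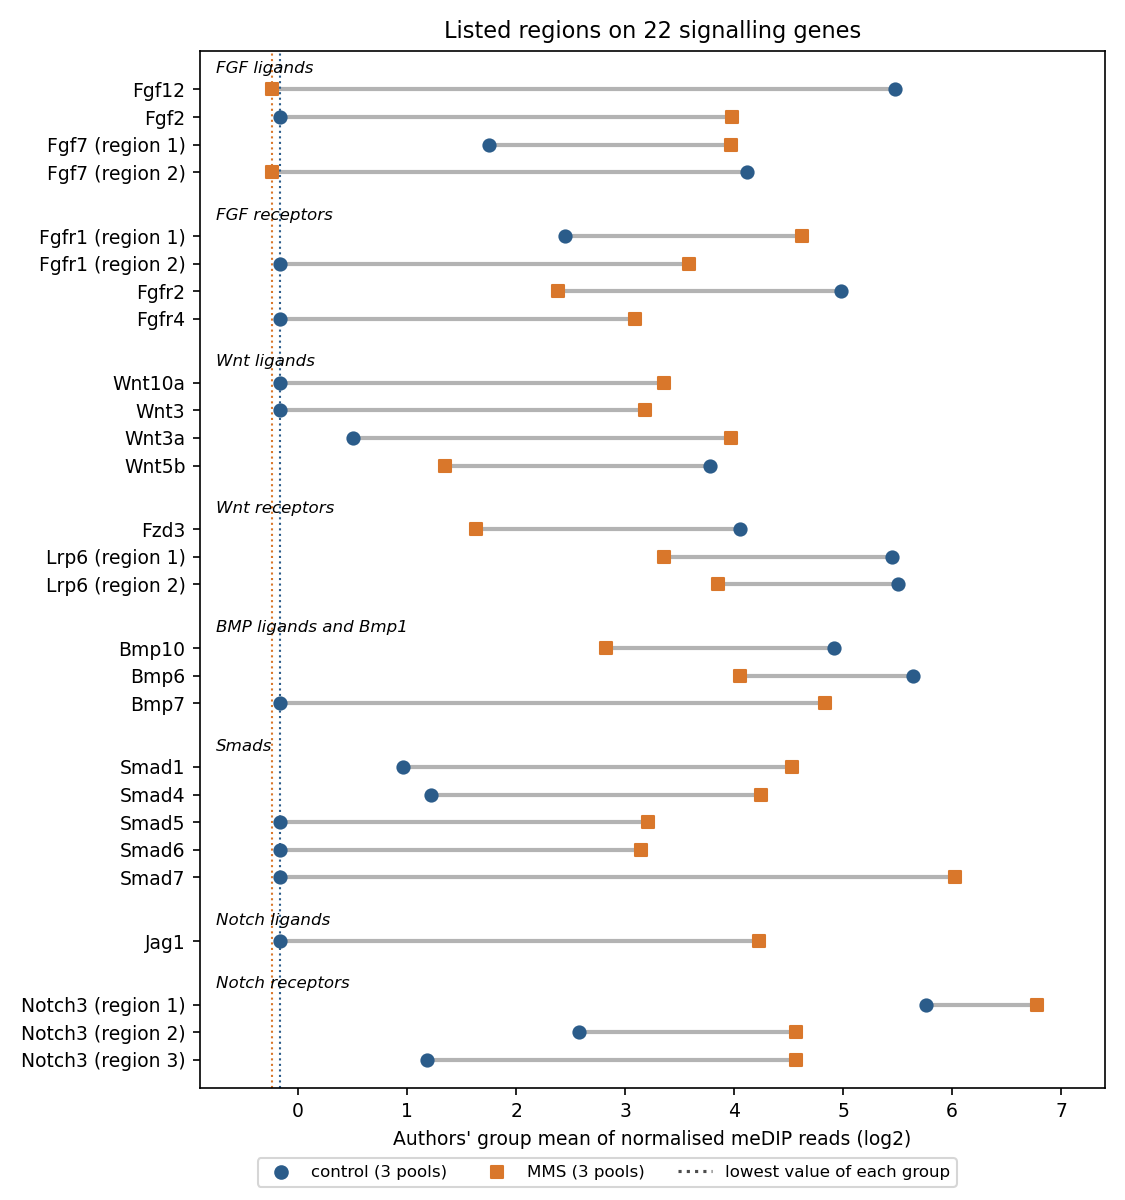
Authors' group means of normalised meDIP reads (log2, horizontal axis) for the 26 listed regions outside Fgfr2 and the 1 inside the RefSeq body of Fgfr2, grouped by role, with circles for control and squares for MMS (3 pools each, no error available) and dotted lines at the lowest value of each group. The 3 regions on Fzd3 and Lrp6 are higher in control, and the 5 on Smads, the 3 on Notch3 and the 1 on Jag1 are higher in MMS, with no test between roles. Of all listed regions 62.6% were higher in MMS. Control is at its lowest value in the regions of Smad5, Smad6, Smad7 and Jag1.

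Among the FGF ligands, counted together with the intracellular members of the family, 3 of 22 genes were listed, with 2 regions higher in MMS and 2 higher in control. Fgf12, an intracellular member of the family that binds voltage-gated sodium channels, had a mean of 5.48 in control and -0.24 in MMS, a difference of -5.72. This was the largest difference in favour of control among the signalling genes, in a region of 193 bp with 3 CpG sites in intron 1 of the transcript Fgf12-205. Its MMS mean was the lowest value, or less than 1 normalised read, where control had about 44.6.

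Fgf2, a secreted ligand that stimulates the division of neural progenitors, went the other way. Its mean was -0.17 in control and 3.98 in MMS, a difference of 4.15, in a region of 195 bp in intron 1 with 4 CpG sites (chr3:37376747-37376941). The region also overlaps Gm43439, annotated as a processed transcript on the same strand. Here it was the control that stood at its lowest value. The difference was the largest in favour of MMS in the FGF pathway outside the long GENCODE body of Fgfr2.

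Fgf7, the keratinocyte growth factor, held regions of opposite direction in the same intron. The first (chr2:126063146-126063973, 828 bp, 9 CpG) had means of 1.75 in control and 3.97 in MMS, a difference of 2.22. The second (chr2:126077717-126078638, 922 bp, 7 CpG) had 4.12 in control and -0.24 in MMS, a difference of -4.36. They lay 13.7 kb apart in intron 2, which also lies within Fam227b on the opposite strand, so neither region belongs to Fgf7 alone. Soft-masked repeats covered 29.2% of the first and 51.4% of the second.

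Among the FGF receptors, Fgfr1, Fgfr2 and Fgfr4 were listed and Fgfr3 was not. Fgfr1, the main FGF receptor of neural progenitors, was higher in MMS at both ends of its gene body. The region at the 5′ end (chr8:25512552-25514198, 1647 bp, 29 CpG) had means of 2.45 in control and 4.62 in MMS, a difference of 2.17. It covered the promoter and the 5′ UTR of the alternative transcript Fgfr1-212, whose start is at position 25513654, and lay outside the RefSeq body of the gene and its 1000 bp upstream. The region near the 3′ end (chr8:25572179-25572426, 248 bp, 9 CpG) overlapped coding exon 14 of 18, with means of -0.17 in control and 3.59 in MMS, a difference of 3.76. At 3.63 CpG per 100 bp it was the densest region of the FGF pathway.

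Fgfr4 had 1 region in intron 13 (550 bp, 11 CpG), with means of -0.17 in control and 3.09 in MMS, a difference of 3.26. Parts of this reference sequence had 3374 alignments of at least 100 bp and 95% identity elsewhere in the genome, the longest of 168 bp, so some reads could have come from other copies. The share of such reads was not tested.

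Fgfr2 stood apart by its annotation. In RefSeq the gene spans 104.4 kb on the minus strand (chr7:130162451-130266808), and in GENCODE it spans 2960.9 kb (chr7:130162451-133123350), 28.4 times as much. A single one of its 27 GENCODE transcripts, Fgfr2-217, sets this length and has no consensus coding sequence (CCDS) entry. Within the GENCODE body 19 regions were listed, 13 higher in MMS and 6 higher in control, with differences from -2.60 to 4.68 and the control mean at its lowest value in 6.

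Only 1 of those 19 lay inside the RefSeq body, and the same one lay inside the span of the transcripts with a CCDS. It is the 208 bp region whose sequence is shown above, at the 3′ end of the gene, in intron 17 of Fgfr2-215 and overlapping exons of other transcripts. Its means were 4.98 in control and 2.38 in MMS, a difference of -2.60, or about 31.6 and 5.21 normalised reads. Both groups were well above their lowest values there. The receptor-coding part of Fgfr2 thus contributed 1 region that was higher in control, while the 13 regions higher in MMS all lay outside it.

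The other 18 regions lay in intron 2 of Fgfr2-217, between 21.2 and 2744 kb upstream of the RefSeq start. Another protein-coding gene was overlapped by 7 of them, with 2 on Lhpp and 1 each on Ate1, Nsmce4a, Cpxm2, Chst15 and Ctbp2, and 11 overlapped none. In all, 30 other protein-coding genes overlap the GENCODE body. The density of listed regions was 0.642 per 100 kb over the GENCODE body and 0.958 over the RefSeq body, which rests on 1 region, beside 0.475 over the genome. The closest neighbours of opposite direction were 914 bp apart, at chr7:132389087-132391699 with a difference of 3.52 and at chr7:132392614-132393420 with -1.48.

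**Figure D2:**
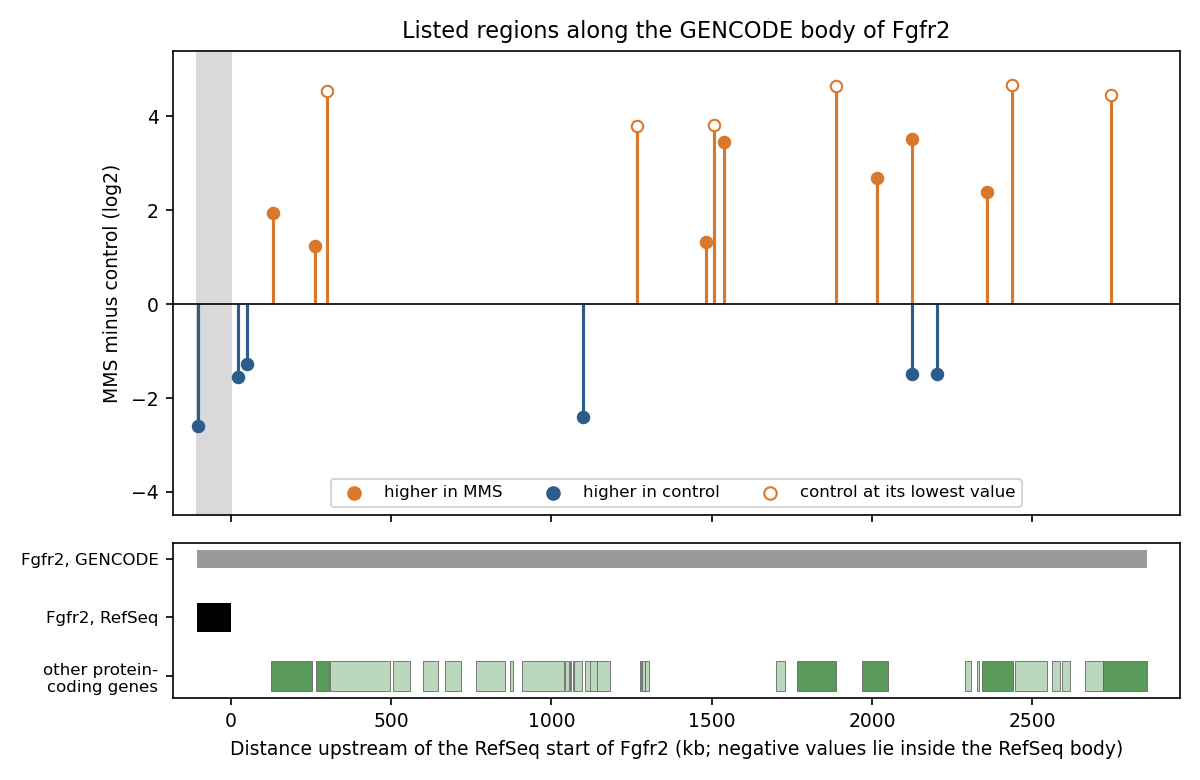
Difference of group means (MMS minus control, log2) of the 19 listed regions along the GENCODE body of Fgfr2, by distance in kb upstream of the RefSeq start, with open circles where the control mean was at its lowest value and, below, the GENCODE body, the RefSeq body and other protein-coding genes (dark where they carry 1 or more of these regions). Only 1 region, with a difference of -2.60, falls in the shaded RefSeq body, and the other 18 reach 2744 kb upstream.

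Among the Wnt ligands 4 of 19 genes were listed, and the 3 that were higher in MMS differed by similar amounts. Wnt3, a ligand of the β-catenin pathway, had means of -0.17 in control and 3.18 in MMS, a difference of 3.35, in a region of 415 bp with 5 CpG sites over coding exon 4 of 5 (chr11:103811883-103812297). Wnt3a, which acts on progenitors at the dorsal midline of the forebrain, had 0.50 in control and 3.97 in MMS, a difference of 3.47, in intron 1. Wnt10a had -0.17 in control and 3.36 in MMS, a difference of 3.53 in intron 3 (chr1:74801287-74801913, 627 bp, 9 CpG), the largest of the pathway in favour of MMS. The last of these sequences had 5938 partial alignments elsewhere, none longer than 171 bp.

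Wnt5b, a ligand of the β-catenin-independent branch, went the other way, with 3.78 in control and 1.35 in MMS. The difference was -2.43, the largest of the pathway in favour of control, in a region of 206 bp with 1 CpG site in intron 1 of Wnt5b-204 (chr6:119456252-119456457).

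Among the Frizzled genes, Lrp5 and Lrp6, 2 of 12 genes were listed, with 3 regions, each higher in control. Further Wnt receptors, among them Ror1, Ror2 and Ptk7, were counted with the other pathway genes and had between them regions in both directions. Fzd3, a Frizzled receptor needed for axon tract formation, had means of 4.05 in control and 1.63 in MMS, a difference of -2.42. Its region of 149 bp in intron 1 was the narrowest of the 45 and the only one without a CpG site in the reference. Of all listed regions 310 had none.

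Lrp6, a co-receptor for Wnt ligands, had a pair of regions 5.4 kb apart in intron 12 of a gene with 23 exons. The first (chr6:134471001-134471274, 274 bp, 10 CpG) had means of 5.45 in control and 3.36 in MMS, a difference of -2.09. It was the densest of the Wnt pathway, at 3.65 CpG per 100 bp, and touched the promoter of Lrp6-202, a retained-intron transcript. The second (chr6:134476688-134477417, 730 bp, 10 CpG) had 5.50 in control and 3.85 in MMS, a difference of -1.65. Both regions moved the same way and were well covered in both groups. Of these receptor genes, those without a listed region were Fzd1, Fzd2, Fzd4, Fzd5, Fzd6, Fzd7, Fzd8, Fzd9, Fzd10 and Lrp5.

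Among the BMP ligands, counted together with the protease Bmp1, 3 of 11 genes were listed. Bmp10, best known for its role in heart development, had means of 4.92 in control and 2.82 in MMS, a difference of -2.10, the largest of the pathway in favour of control. Its region (chr6:87429193-87429561, 369 bp, 16 CpG) overlapped coding exon 1 and intron 1 and was centred 383 bp from the transcription start. At 4.34 CpG per 100 bp it was the densest of the 45.

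Bmp6, which also regulates iron metabolism, had 5.64 in control and 4.05 in MMS, a difference of -1.59 in intron 1. Bmp7, a ligand with roles in brain and kidney development, had -0.17 in control and 4.83 in MMS, a difference of 5.00. The Bmp7 region (chr2:172914898-172916181, 1284 bp, 24 CpG) lay in intron 2 of the main transcript and overlapped an exon of a noncoding one. In Bmp7 the control mean was the lowest value, as in many regions of the whole table that were higher in MMS.

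Of the receptor genes, Bmpr1a, Bmpr1b and Bmpr2 had no listed region, whereas Acvr1 and Acvrl1, type I receptors counted with the other pathway genes, had 1 each, with differences of -1.25 and 2.40. The Smads, which carry the signal of the BMP and TGF-β receptors to the nucleus, had 5 of 8 genes listed, each with 1 region and each higher in MMS. Their median length was 62.9 kb, and of all protein-coding genes between 50 and 100 kb 36.3% were listed. With both group means above their lowest values, Smad1 and Smad4 alone remained listed. Smad2, Smad3 and Smad9 had none.

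Of the receptor-regulated Smads of the BMP branch, Smad1 had means of 0.96 in control and 4.53 in MMS, a difference of 3.57 in intron 1. Smad5 had -0.17 in control and 3.21 in MMS, a difference of 3.38, in the 3′ UTR of exon 7 (chr13:56741439-56741766, 328 bp, 5 CpG). Smad4, the shared partner of the receptor-regulated Smads, had 1.22 in control and 4.25 in MMS, a difference of 3.03 in intron 2. These 3 differences were similar in size, and the control was at its lowest value in that of Smad5 alone.

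Both inhibitory Smads, which block the receptors and form part of a feedback loop, were listed with the control at its lowest value. Smad6 had -0.17 in control and 3.15 in MMS, a difference of 3.32 in intron 1. Smad7 had -0.17 in control and 6.03 in MMS, a difference of 6.20, the largest of all 45 regions. The Smad7 region (chr18:75377168-75379483) was 2316 bp wide with 43 CpG sites in intron 3 of a gene with 4 exons. Its MMS mean corresponded to about 65.3 normalised reads, where the median of the signalling gene regions higher in MMS was 19.4. These are reads per region, and the median width of the signalling gene regions higher in MMS was 597 bp.

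**Figure D3:**
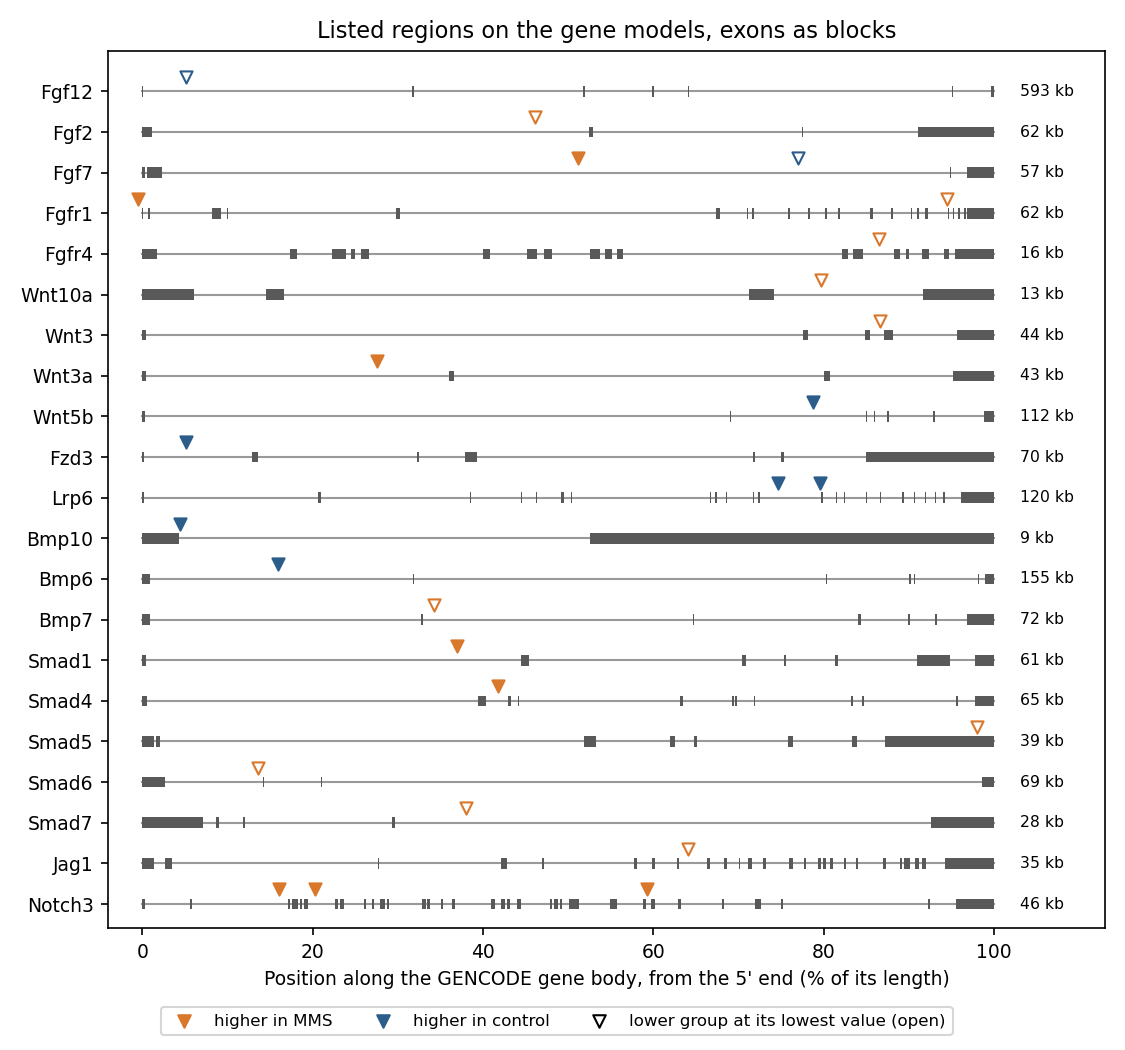
Position of the 26 listed regions along the GENCODE bodies of 21 signalling genes (all but Fgfr2), in percent of the gene length from the 5′ end, with exons of protein-coding transcripts as blocks, the gene length in kb at the right and open triangles where the lower group was at its lowest value. The regions are spread along the genes, and 17 of the 26 touch introns only.

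In the Notch pathway 1 of 5 ligand genes and 1 of 4 receptor genes were listed, with 4 regions, each higher in MMS and 3 of them on Notch3. Jag1, a ligand expressed by neural progenitors, had means of -0.17 in control and 4.23 in MMS, a difference of 4.40, the largest of the pathway. Its region (chr2:137093780-137094375, 596 bp) lay in intron 8 of a gene of 26 exons and had 3 CpG sites, or 0.503 per 100 bp. Notch1, Notch2 and Notch4 had no listed region.

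Notch3, a receptor known for its role in vascular smooth muscle and pericytes, had 3 regions. The first (chr17:32137985-32141207, 3223 bp, 43 CpG) had means of 5.76 in control and 6.78 in MMS, a difference of 1.02. It was the widest region on a signalling gene, covered coding exons 26 and 27 of 33, touched the promoter of the short coding transcript Notch3-202, and overlapped the antisense gene Gm17276. It combined the highest control mean of the 45 with the smallest difference of those higher in MMS, and at 1.33 CpG per 100 bp it was the densest of the pathway.

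The second region of Notch3 (chr17:32157155-32157859, 705 bp, 5 CpG) had 2.58 in control and 4.57 in MMS, a difference of 1.99 in intron 6. The third (chr17:32158906-32160022, 1117 bp, 8 CpG) had 1.18 in control and 4.57 in MMS, a difference of 3.39, over coding exon 3 and intron 2. Only 1046 bp separated these neighbours. Repeats covered 69.7% of the third region, and 3 partial alignments of up to 112 bp were found elsewhere for it.

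In sequence, the medians of the 45 regions lay close to those of the whole table. Their median width was 596 bp (544 bp over all listed regions), their median CpG density 1.37 per 100 bp (1.32), their median GC content 48.8% (47.4%) and their median repeat share 17.9% (20.6%). CpG density ranged from 0 to 4.34 per 100 bp, and the plot of density against difference shows both directions at both ends of that range. For 41 of the 45 regions no partial alignment was found elsewhere in the genome. The exceptions were the regions of Fgfr4 and Wnt10a, the third region of Notch3 and 1 region of Fgfr2 outside its RefSeq body.

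**Figure D4:**
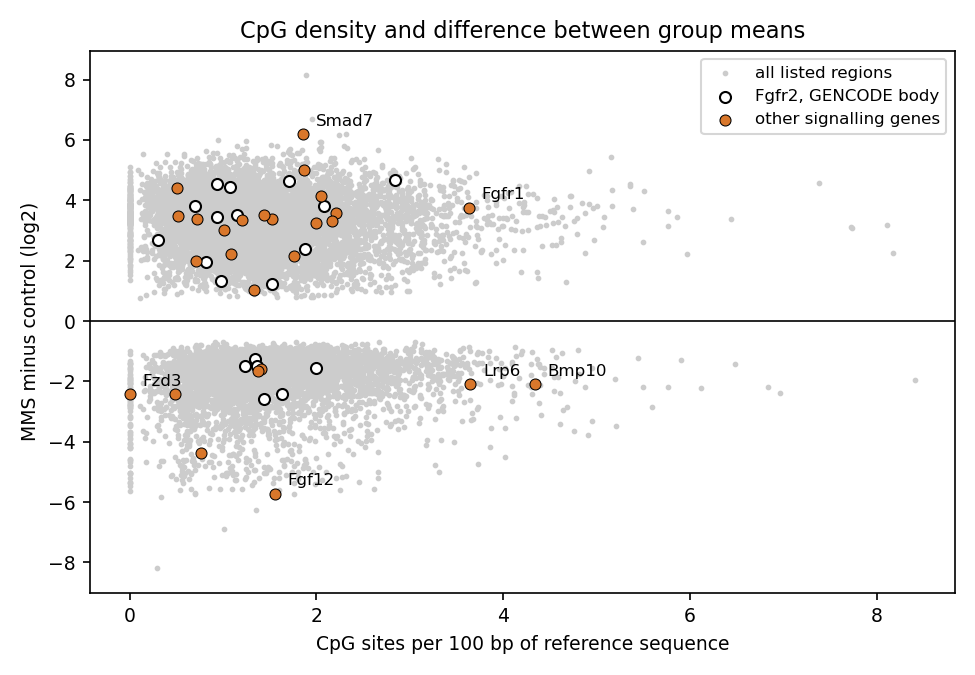
Difference of group means (MMS minus control, log2) against CpG sites per 100 bp of reference sequence for all 12949 listed regions (grey), the 19 on the GENCODE body of Fgfr2 (open circles) and the 26 on other signalling genes (filled circles). The signalling genes run from 0 sites on Fzd3 to 4.34 per 100 bp on Bmp10, both higher in control.

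Of the 45 regions, 35 touched introns only, 6 touched coding exons, 3 touched the promoter of some transcript, 2 touched a 3′ UTR and 1 touched a 5′ UTR. Introns only were touched by 77.8% of them, beside 73.4% of the 6498 listed regions on protein-coding genes, coding exons by 13.3%, beside 17.9%, and promoters by 6.67%, beside 8.25%. A promoter was taken as the 1000 bp before and 100 bp after a transcript start. The 3 promoter regions were those of Fgfr1-212, Notch3-202 and Lrp6-202, each an alternative transcript. Of the 79 RefSeq promoter windows matched by symbol to 64 of the 88 genes, none overlapped a listed region, as was so for nearly all such windows of protein-coding genes, of which 0.194% did (39 of 20150).

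Longer genes were listed more often. Signalling genes with a region had a median length of 61.4 kb and those without one 20.4 kb, beside 26.8 kb over all 88 and 17.4 kb over all protein-coding genes. Up to 10 kb, 1 of 24 signalling genes was listed (4.17%, beside 3.58% of all protein-coding genes of that length), and between 10 and 50 kb 8 of 38 were (21.1%, beside 16.2%). Between 50 and 100 kb 8 of 12 were listed (66.7%, beside 36.3%), namely Bmp7, Smad1, Smad4, Smad6, Fgf2, Fgf7, Fgfr1 and Fzd3. Of these, Bmp7, Smad6 and Fgf2 were listed only through regions with control at its lowest value.

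Above 100 kb the order turned. From 100 to 300 kb 3 of 9 signalling genes were listed (33.3%, beside 57.4%), and above 300 kb 2 of 5 (40%, beside 79.9%), of which 1 was Fgfr2 with its long GENCODE body. The longest genes without a region were Fgf14 at 699.2 kb and Fgf13 at 505.9 kb, both intracellular FGFs like Fgf12, and Bmpr1b at 332.3 kb. The part of gene length in the counts was not tested beyond these classes.

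**Figure D5:**
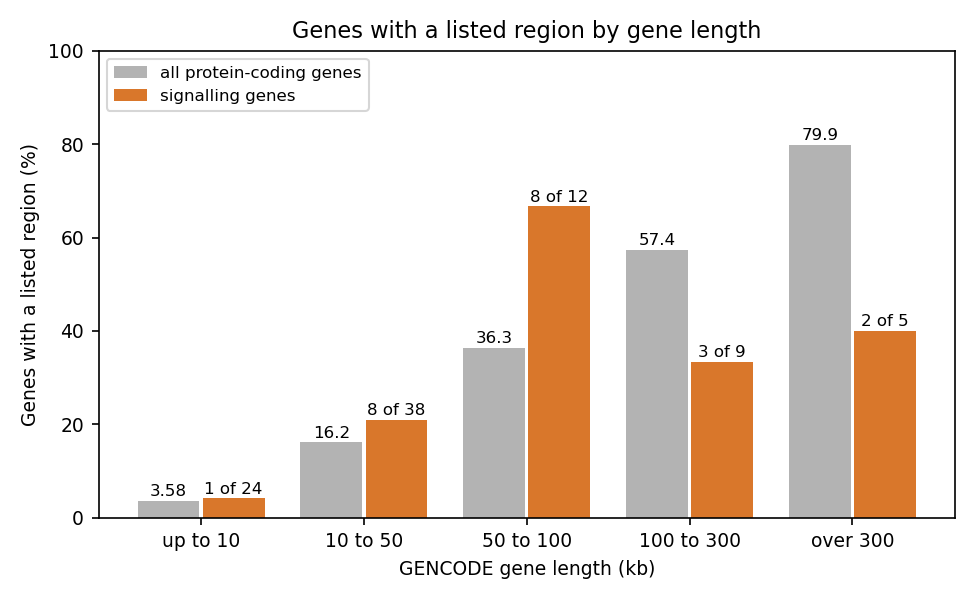
Share of genes with at least 1 listed region (%, vertical axis) by class of GENCODE gene length (kb), with grey bars for all protein-coding genes and orange bars for the 88 signalling genes. Signalling genes lie above all genes in the 3 classes up to 100 kb and below them in the 2 classes over 100 kb. The excess is small up to 10 kb (1 of 24) and largest between 50 and 100 kb (8 of 12). Regions with a group at its lowest value are included.

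The other 66 signalling genes had no listed region, which says only that none in their body or the 1000 bp upstream passed the authors' limit. The distance from these genes to the nearest listed region had a median of 53.65 kb, from 2.1 kb for Fgf8 to 703.6 kb for Fgf16. Bmp15, Fgf13 and Fgf16, the 3 signalling genes on chromosome X, had the largest distances, from 422.5 to 703.6 kb. Widening the upstream window to 5000 bp added 4 genes, which gave 26 of 88 (29.5%), beside 21.4% of all protein-coding genes with that window. Fgf8, a ligand of the midline and isthmic signalling centres, had means of -0.17 in control and 4.09 in MMS, Bmp8a -0.17 and 3.88, Wnt4 2.28 and 4.53, and Wnt7b 1.80 and 4.43.

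Other genes of the 4 pathways were counted from a list of 160 adaptors, modulators, transcription factors and targets, of which 158 were found by symbol. Of these, 44 had a listed region (27.8%, beside 19.3% of all protein-coding genes), at a median gene length of 32.0 kb, beside 17.4 kb. They held 37 regions higher in MMS and 26 higher in control, where 62.6% of all listed regions were higher in MMS. By pathway 26 of 65 Wnt genes (40%), 7 of 28 BMP genes (25%), 5 of 26 FGF genes (19.2%) and 6 of 39 Notch genes (15.4%) were listed. Regions higher in MMS and in control numbered 27 and 11 for the Wnt genes, 3 and 4 for the BMP genes, 3 and 3 for the FGF genes, and 4 and 8 for the Notch genes, where Maml3 alone held 4 of the 8.

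The genes of this list with the most regions were Maml3, a coactivator of Notch target genes, with 5, and Ror2, a Wnt receptor kinase, with 4. They are 419.2 and 176.8 kb long, and longer genes were listed more often. Of the Maml3 regions 4 were higher in control, with differences of -2.00, -2.05, -2.14 and -5.21, and 1 was higher in MMS, at 1.80. The Ror2 regions, all in intron 1, differed by 3.29, 3.71, 1.46 and -0.91. MMS stood at its lowest value in the Maml3 region of -5.21, and control in the Ror2 regions of 3.29 and 3.71. Grb2, the adaptor between FGF receptors and Ras, had 2 in intron 2, at -4.66 with MMS and 3.90 with control at its lowest value. No BMP gene of the list had more than 1 region.

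Regions that touch the promoter window of some transcript were found on this list for Rbpj, Dvl2 and Ptk7. Rbpj, the DNA-binding partner of the Notch receptors, had means of 5.00 in control and 3.49 in MMS, a difference of -1.51, in a region of 237 bp with 3 CpG sites before the start of the coding transcript Rbpj-210 (chr5:53465826-53466062). Dvl2, which relays the signal of Frizzled receptors, differed by -1.44 in the promoter window of a retained-intron transcript, and Ptk7, a Wnt co-receptor, by 2.65 in that of a processed transcript. These Dvl2 and Ptk7 regions also touched coding exons, at exons 8 to 10 of 15 in Dvl2 and exons 14 and 15 of 20 in Ptk7. A further region of Ptk7, away from promoters, differed by -3.72.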

How the data were processed

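The 3 control and 3 MMS meDIP libraries were sequenced on the Ion Proton platform. Per the study's methods, Torrent Suite was used by the authors for alignment (mm10) and MACS2 for broad peaks, against the group's input and with a human genome size setting. The authors subtracted an IgG control and compared the groups with DiffBind and DESeq2. The submitters' processing notes name MACS2 2.1, DiffBind and HOMER 4.8. Input and IgG libraries carry the same antibody label as the meDIP libraries, and these 3 were not analysed by themselves.

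The deposited table gives, for each of 12949 regions, the authors' log2 means of normalised reads over both groups and per group, where the columns named untreated and treated were read as control and MMS. The authors also ran an alternative method of comparison and report that its regions overlapped substantially with theirs. As worded, their caption for this overlap gives the alternative method a total equal to the 12949 regions. The study's results text names the method given above instead, and which method gave the regions was not tested. The authors' fold change, p-value and false discovery rate columns hold their own comparison and were not used. The table holds no value and no depth per library, so no SD, interval or test between groups could be computed.

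Regions were joined to GENCODE vM21 gene bodies and the 1000 bp upstream by any overlap. Sequence features came from GRCm38, RefSeq bodies from its RefSeq annotation, and alignments elsewhere (100 bp, 95% identity) from BLAST 2.17.0. A mean within 0.5 of the lowest value of its group was called at its lowest value. Counting steps ran in Python 3.11.15 with pandas 2.3.3 and were tested on simulated regions. Every member with a region was named. Positions were given in full for members with 2 or more regions, for regions on promoters, UTRs or coding exons, for the largest difference per direction and pathway, for the densest region per pathway, and for Fgfr2 inside its RefSeq span. The other Fgfr2 regions were left out of these rules and given by range, except for a neighbouring pair of opposite direction that was chosen after its values were seen. Of the other pathway genes, those with the most regions per pathway and those with a promoter region were named. Ror1 and Acvrl1 were named after their values were seen. The members and lists were chosen with earlier results of these data known. Alternatives changed the window, overlap rule, width, difference, lowest value, annotation and members.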

Additional observations from a re-analysis of the deposited data

How the results depend on the processing

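The counts depended most on the lowest value and on the annotation of Fgfr2. With both group means required to exceed their lowest values by more than 0.5, 12 signalling genes and 27 regions were listed, and 55.6% of the regions were higher in MMS, beside 45.3% of all regions under the same condition. With RefSeq gene bodies 26 regions were listed, and without Fgfr2 26. For Fgfr2 itself the 19 regions became 1 with the RefSeq body, 1 with the span of transcripts with a CCDS, 12 without regions on another protein-coding gene, and 12 with a log2 difference of at least 2. The other 44 values computed under the alternatives stayed within 1.5 times a count or kept their direction. Among them, the number of genes ran from 18 with regions of at least 300 bp to 26 with 5000 bp upstream, and the share higher in MMS from 55.6% to 76.5%. The median difference in favour of control ran from -1.59 to -2.42.

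No paired analysis was possible because the table holds group means and no value per library, and for the same reason leaving out a replicate was not possible. The limits are the missing spread between pools and the depth of each library, which the study gives only as a range over samples. Others are the pooling of 10 animals into 3 pools per group and the dependence of meDIP reads on CpG number and region width. Reads shared with overlapping genes or repeated sequence are a further limit.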

Other observations

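Among the other Wnt pathway genes, Tcf7l2, a transcription factor that acts with β-catenin and is expressed in the thalamus and habenula, was named after its values were seen. It had 3 regions, all higher in MMS, with differences of 3.24, 3.49 and 3.60. Control stood at its lowest value in those of 3.24 and 3.60, and the last had no CpG site in the reference. The gene is 191.8 kb long, and of all protein-coding genes between 100 and 300 kb 57.4% were listed.

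Like Fgf7, Grb2 held a pair of regions of opposite direction in its intron 2, here with one of the groups at its lowest value in each region. The values for Grb2 were 4.42 in control and -0.24 in MMS in the first region, and -0.17 in control and 3.73 in MMS in the second. With 1 mean per group, it was not tested whether the same pools gave both signals.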
